A study of Mus musculus with 24 samples.

Results

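The RNA of plasma extracellular vesicles was compared between male C57BL/6J mice sampled at day 15 and at day 8 after a sham operation, the control surgery of a study of bile duct ligation. These 12 libraries, 6 for day 15 and 6 for day 8, were chosen by their titles from the 24 libraries of the series. The titles, source names and treatment labels call them sham, while the general treatment protocol names ligation for all 24. The other 12 libraries came from mice with a ligated bile duct, 6 at day 15 and 6 at day 8, and are used here only to set the sham difference beside theirs. All mice were C57BL/6J, an inbred strain, with no allele or drug named in the labels, and the sources used here do not state their age. The titles number the samples 1 to 6 in each group without saying that each is a separate animal, so p-values measure the spread between these samples. Sham animals had surgery as well, and no unoperated mice were analysed here, so recovery from surgery, passing time and age cannot be told apart between the days. The labels give liver as the tissue but vesicles as the site sampled, and describe particles precipitated from blood plasma with the polymer reagent ExoQuick, which also brings down other plasma particles.

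Extracellular vesicles are membrane particles that cells shed into the blood, and the RNA in them comes from many cell types. Platelets, the cell fragments that megakaryocytes release and that stop bleeding, readily shed vesicles and can remain in plasma spun at low speed. Red cells, white cells, vessel lining and liver also contribute vesicle RNA. In bulk RNA of this kind, fewer vesicles of a source and less RNA per vesicle cannot be told apart.

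Day 15 libraries held 157133 to 351201 counts and day 8 libraries 101733 to 824640. The day 8 group was uneven: numbers 1 to 3 held 101733 to 349386 counts and numbers 4 to 6 held 535737 to 824640. Mean totals of 248400 ± 62900 at day 15 and 454400 ± 264300 at day 8 (SD, n = 6 each) gave p = 0.106 in a two-sided exact permutation test over 924 arrangements, adjusted p = 0.318 over 3 library measures. Genes with a count numbered 9389 to 11076 at day 15 and 8339 to 12171 at day 8 (p = 0.286, same exact permutation test, adjusted p = 0.429). The gene model of Lars2, a mitochondrial leucyl-tRNA synthetase, held 45.2 to 51.4% of the counts at day 15 and 45.4 to 51.6% at day 8 (p = 0.578, same exact permutation test, adjusted p = 0.578). The totals above include these counts. Ribosomal RNA was not removed from the libraries, and which RNA at this gene model gave the counts was not tested. Of the 21960 genes deposited, 4112 were deep enough to test.

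The liver label was checked against hepatocyte genes. Alb, Apoa1, Ttr and Hpx (albumin, an apolipoprotein, transthyretin and hemopexin) summed to 40 counts over the 6 day 15 libraries and 45 over the 6 day 8 libraries, that is 4.48 to 69.3 and 0 to 41.2 CPM, the count scaled to a common library total. Pf4, Ppbp, Itga2b and Gp9, which define platelets, summed to 584 to 1620 CPM at day 15 and 806 to 5090 at day 8. Hbb-bs, Hba-a1 and Alas2, which define red cells, summed to 34600 to 74600 CPM at day 15 and 33400 to 48700 at day 8. Krt1 and Krt10, which define epidermis, had 1 count at day 15 and 2 at day 8. The libraries thus held blood cell RNA and very little hepatocyte RNA on both days.

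Libraries stood apart within both groups. In a principal component analysis of the 12 libraries, the first component (19.9% of the variance) separated day 8 numbers 4 to 6, at 21.5 to 27.6, from the other 9, at -26.2 to 5.27. Among those 9, day 15 number 1 and day 8 number 1 lay apart at -26.2 and -25.1, and the rest at -8.31 to 5.27. The second component (15.8%) separated day 15 numbers 2 and 3, at 29.1 and 34.0, from the other 10, at -13.5 to 3.25. The genes of smallest p are therefore given against all 6 day 8 libraries, against numbers 1 to 3 alone and against numbers 4 to 6 alone. Other genes and gene lists are given this way in part. Values with and without day 15 numbers 2 and 3 are given where they matter. The labels say that libraries were pooled by 12 for sequencing but not which ones, and whether the split of day 8 follows a pool was not tested.

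**Figure D1:**
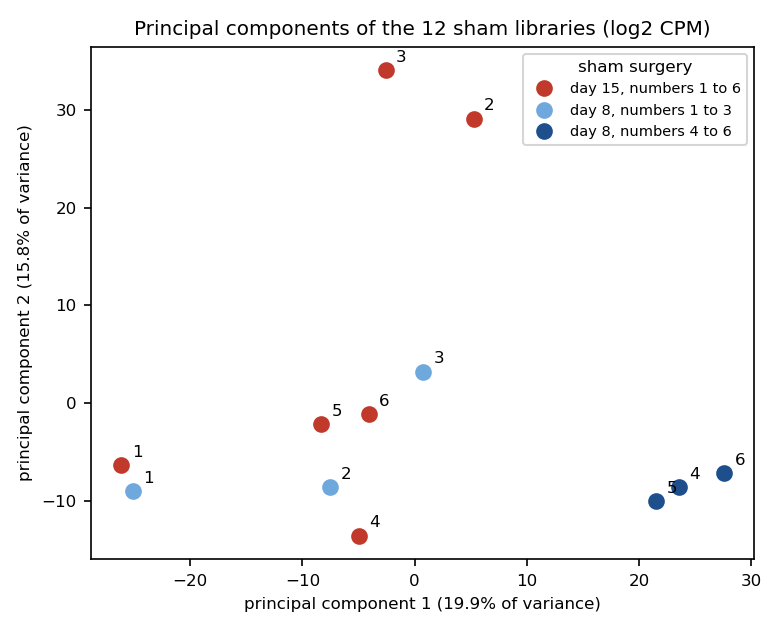
Principal components 1 (x axis, 19.9% of the variance) and 2 (y axis, 15.8%) of log2 CPM in the 12 sham libraries, 1 point per library with its number, coloured by day 15, day 8 numbers 1 to 3 and day 8 numbers 4 to 6. Day 8 numbers 4 to 6 lie apart at one end of the first axis and number 1 of each day at the other. Day 15 numbers 2 and 3 lie apart on the second axis, while the remaining day 15 and day 8 libraries mix.

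With all 6 libraries a day, no gene passed an adjusted p of 0.05 in edgeR's quasi-likelihood test (0% of 4112 genes). At an unadjusted p under 0.05 there were 439 genes, 10.7% of those tested, 191 of them higher at day 15 (4.64%) and 248 lower (6.03%). The smallest adjusted p was 0.146. DESeq2's Wald test on the same counts called 1 gene higher and 4 lower at day 15, named below. Against day 8 numbers 1 to 3 alone, no gene passed either (0%), and 162 genes had an unadjusted p under 0.05 (3.94% of those tested), 102 higher at day 15 (2.48%) and 60 lower (1.46%). Against day 8 numbers 4 to 6 alone, 262 genes were called (6.37%), 75 of them higher (1.82%) and 187 lower (4.55%) at day 15. The comparisons share the 6 day 15 libraries, and the subsets were set with the depth and platelet content of these libraries known, so the calls against numbers 4 to 6 are no independent support for a difference between days. Within day 8, numbers 4 to 6 against 1 to 3 gave 104 called genes (2.53%), 94 higher (2.29%) and 10 lower (0.243%), a difference that has no day in it.

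With an unadjusted p under 0.05 and the same sign against each day 8 subset there were 40 of 4112 genes, 21 with higher and 19 with lower values at day 15. Both comparisons share the day 15 libraries, and at any p 2534 of the 4112 genes had the same sign in both. The 40 genes are therefore no replicated set. Lbr, which encodes the lamin B receptor of the inner nuclear membrane (GRCm38 chromosome 1, 181815335 to 181843046, minus strand), had the smallest p. In normalised CPM, the unit of every single gene below, it stood at 28.9 at the lowest, 51.9 at the median and 86.5 at the highest at day 15, against 14.2, 20.1 and 31.7 at day 8. Only the lowest day 15 library lay within the day 8 range. Its log2 fold change of day 15 over day 8 was 1.41 (SE 0.29, adjusted p = 0.146), with 1.08 (SE 0.39) against day 8 numbers 1 to 3 and 1.61 (SE 0.34) against numbers 4 to 6. DESeq2 called it (adjusted p = 0.0401), and edgeR called it only when day 15 number 4 was left out (log2 fold change 1.58, adjusted p = 0.0264), among the 12 fits that each left out 1 library. Lbr was highest in day 15 numbers 2 and 3, at 84.1 and 86.5 CPM. Without them its log2 fold change was 1.08 (SE 0.30, edgeR, adjusted p = 0.283).

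Slc16a1 and Hnrnpll had no overlap between the days. Slc16a1 encodes the monocarboxylate transporter MCT1, which moves lactate across the cell membrane (chromosome 3, 104638668 to 104658462, plus strand). It had 16.1, 27.0 and 67.9 CPM at the lowest, median and highest at day 15, against 5.34, 8.60 and 14.4 CPM at day 8. The log2 fold change was 1.61 (SE 0.42, adjusted p = 0.182), with 1.47 (SE 0.52) against numbers 1 to 3 and 1.68 (SE 0.42) against numbers 4 to 6. Hnrnpll, an RNA-binding protein that regulates splicing in lymphocytes, had 23.1, 29.4 and 44.3 CPM at day 15, against 9.56, 10.6 and 23.1 CPM at day 8, where number 4 alone reached the top, just under the lowest day 15 library. Its log2 fold change was 1.17 (SE 0.31, adjusted p = 0.191), with 1.35 (SE 0.46) against numbers 1 to 3 and 1.08 (SE 0.36) against numbers 4 to 6. Hnrnpll had 4 to 10 counts in each day 15 library and Slc16a1 had 4 to 11. In all, 7 genes did not overlap between the groups, 0.17% of those tested, 5 higher (0.122%) and 2 lower (0.0486%) at day 15. Among 4112 genes some separate fully by chance, since 12 libraries split 6 against 6 in only 924 ways. A lack of overlap is therefore no evidence of a difference by itself. The other higher ones were Myeov2, Ube2g2 (an E2 ubiquitin-conjugating enzyme) and H2-K1, a classical MHC class I heavy chain, which averaged 103 ± 20.5 CPM at day 15 and 59.7 ± 7.60 CPM at day 8 (SD, n = 6 each). Class I genes are near-identical to each other, so how reads were divided among them leaves H2-K1 uncertain. The lower ones were Atg12 and a ribosomal protein pseudogene, Rpl10-ps3, whose near-identical copies make its counts uncertain.

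Axl, Ak3, Mical3 and Ctnnd1 completed the genes of smallest p with higher values at day 15, together with S100a8, described with the neutrophil genes. Axl is a receptor tyrosine kinase that binds Gas6 and takes part in the clearance of dying cells. It had 18.5 to 117 CPM at day 15, against 8.89 to 38.7 CPM at day 8, with overlap and means of 62.1 ± 34.0 and 26.0 ± 11.3 CPM (SD, n = 6 each; log2 fold change 1.41, SE 0.36, adjusted p = 0.182). Ak3, a mitochondrial adenylate kinase, had 59.8, 74.7 and 105 CPM at day 15, against 30.3, 40.6 and 63.4 CPM at day 8 (0.89, SE 0.24, adjusted p = 0.191). For Mical3, an actin-oxidising enzyme, the value was 1.05 (SE 0.29), and for Ctnnd1, the p120 catenin of cell junctions, 0.94 (SE 0.27), both at an adjusted p of 0.196. In Ctnnd1 day 15 number 1 alone reached 274 CPM, and the other 5 day 15 libraries held 106 to 136 CPM.

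Predicted genes aside, the 8 genes of smallest p with lower values at day 15 were P2ry12, Mmp19, Pttg1ip, Itgb5, Tcp11l2, Mctp1, Atg12 and Slamf1. P2ry12, the ADP receptor of platelets and the target of clopidogrel (chromosome 3, 59216272 to 59262871, minus strand), had 2.89, 28.7 and 38.5 CPM at day 15, against 37.2, 93.0 and 221 CPM at day 8. The groups touched only between the highest day 15 library and the lowest day 8 library. The log2 fold change was -2.33 (SE 0.53, adjusted p = 0.146), with -1.22 (SE 0.50) against numbers 1 to 3 and -2.83 (SE 0.39) against numbers 4 to 6. Mmp19, a matrix metalloproteinase, had 4.02, 6.94 and 22.1 CPM at day 15, against 8.58, 55.9 and 96.7 CPM at day 8 (-2.71, SE 0.62, adjusted p = 0.146). Its value was -1.25 (SE 0.58) against numbers 1 to 3 and -3.21 (SE 0.41) against numbers 4 to 6.

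Pttg1ip, which encodes a protein that binds securin, was at -1.79 (SE 0.41) on the log2 scale and Itgb5, an integrin beta chain that binds vitronectin, at -1.91 (SE 0.44), both with an adjusted p of 0.146. Pttg1ip had -0.71 (SE 0.31) against numbers 1 to 3 and -2.34 (SE 0.27) against numbers 4 to 6. Itgb5 had -1.09 (SE 0.41) and -2.30 (SE 0.33). DESeq2 called Pttg1ip and Itgb5 along with P2ry12 and Mmp19, each with an adjusted p of 0.0401. Within day 8, numbers 4 to 6 over 1 to 3 had log2 fold changes of 1.61 for P2ry12, 1.96 for Mmp19, 1.63 for Pttg1ip and 1.21 for Itgb5, of which Itgb5 alone was not called (adjusted p = 0.0865). Mctp1, a calcium-binding membrane protein, had -2.08 (SE 0.51, adjusted p = 0.182) and Slamf1, a receptor of immune cells, -2.50 (SE 0.64, adjusted p = 0.182). Tcp11l2 had -0.98 (SE 0.23, adjusted p = 0.17). The values of Mctp1, Slamf1 and Tcp11l2 were -1.12, -1.18 and -0.67 against numbers 1 to 3. They were -2.50, -2.99 and -1.16 against numbers 4 to 6. Slamf1 was also called higher in day 8 numbers 4 to 6 than in 1 to 3 (edgeR, adjusted p = 0.044).

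Atg12, which encodes the ubiquitin-like conjugate needed to form autophagosomes, was even across day 8. It had 14.5, 23.6 and 35.4 CPM at day 15, against 38.2, 43.9 and 52.8 CPM at day 8, so every day 15 library lay below every day 8 library. Each day 15 library held only 4 to 8 counts of it. The log2 fold change was -0.98 (SE 0.24, adjusted p = 0.182), -1.08 (SE 0.32) against numbers 1 to 3 and -0.92 (SE 0.28, adjusted p = 0.0461) against numbers 4 to 6, while numbers 4 to 6 against 1 to 3 gave -0.16.

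**Figure D2:**
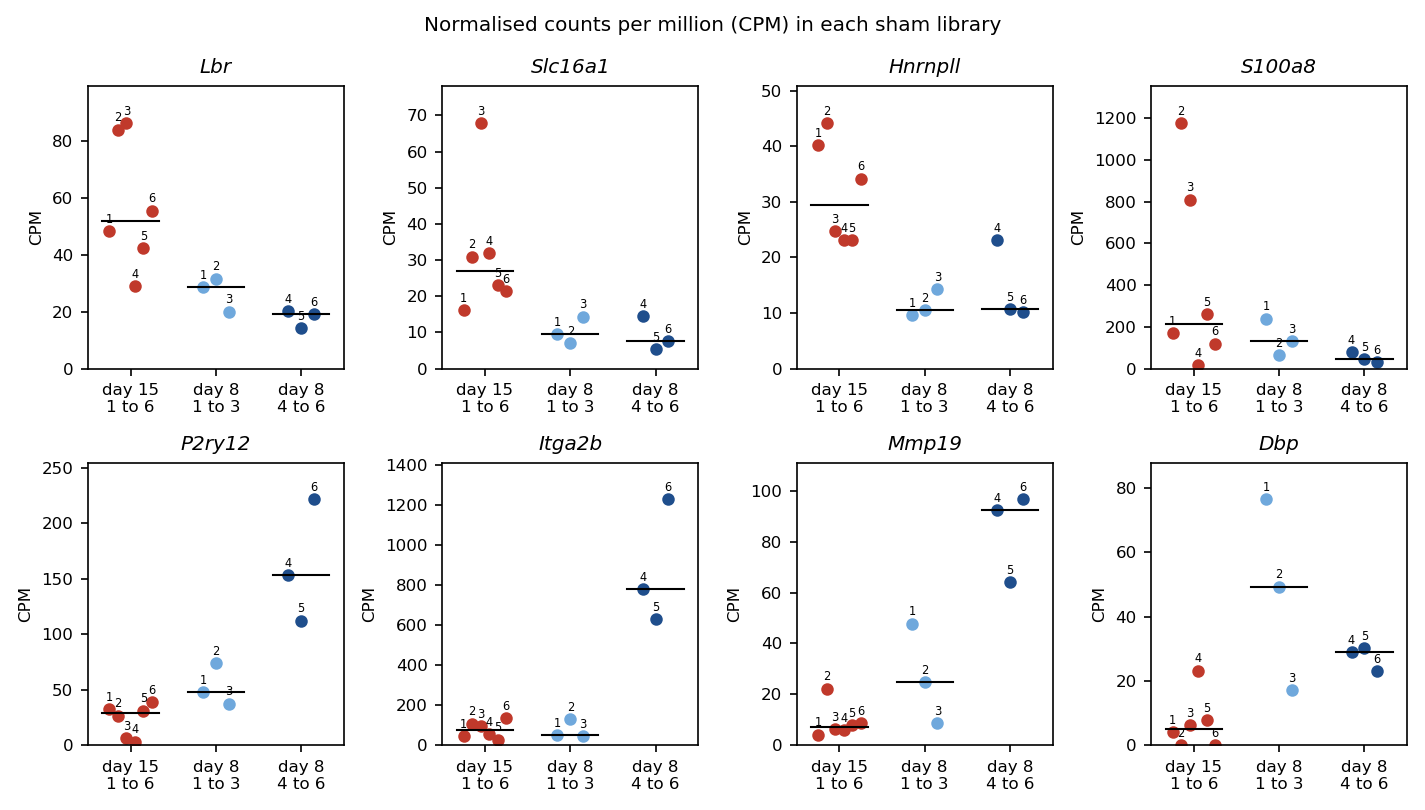
Normalised CPM (y axis) of 8 genes in each sham library, in columns for day 15, day 8 numbers 1 to 3 and day 8 numbers 4 to 6 (x axis); numbers name the samples and bars are medians. Slc16a1 and Hnrnpll separate the days with no overlap, S100a8 is high in day 15 numbers 2 and 3, and Itga2b lies apart in day 8 numbers 4 to 6, at 628 to 1226 CPM.

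Platelet and megakaryocyte genes had lower values at day 15 as a group, and that difference was carried by day 8 numbers 4 to 6. Of 44 genes in the list, 43 were in the table and 38 were tested. None was called, 29 of 38 had an unadjusted p under 0.05 with a lower value at day 15 (beside 6.03% of all tested genes), and the median log2 fold change was -1.09, beside 0.02 over all tested genes. Against day 8 numbers 1 to 3 the median was -0.06 (all genes 0.04), 21 of 38 values were negative, and 1 had an unadjusted p under 0.05, P2ry12. Against numbers 4 to 6 the median was -1.67 (all genes 0.03) and 33 of 38 were called lower (beside 4.55% of all genes). Numbers 4 to 6 against 1 to 3 of day 8 had a median of 1.63, with 18 of 38 called higher (beside 2.29% of all genes). The list held 0.341 to 0.686% of the counts of a library at day 15, 0.392 to 0.83% in day 8 numbers 1 to 3 and 1.35 to 2.47% in day 8 numbers 4 to 6. The day 15 range overlapped the range of numbers 1 to 3 and lay wholly below that of numbers 4 to 6.

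Itga2b, the integrin alphaIIb chain of the fibrinogen receptor, shows the split. It had 27.0, 73.8 and 132 CPM at the lowest, median and highest at day 15. At day 8 it had 47.8, 130 and 45.8 CPM in numbers 1, 2 and 3, and 777, 628 and 1226 CPM in numbers 4, 5 and 6. The log2 fold change was -2.70 (SE 0.71, adjusted p = 0.191), -0.06 (SE 0.39) against numbers 1 to 3 and -3.55 (SE 0.32, adjusted p = 2.17e-08) against numbers 4 to 6. Its partner Itgb3, integrin beta 3, had -2.42 (SE 0.67, adjusted p = 0.196), -0.11 against numbers 1 to 3 and -3.24 against numbers 4 to 6. Thbs1, the granule protein thrombospondin 1, had -2.74 (SE 0.75, adjusted p = 0.196), 0.27 against numbers 1 to 3 and -3.63 against numbers 4 to 6.

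The chemokines of the platelet granules and Cd9 showed smaller differences. Pf4, platelet factor 4, had 136, 213 and 363 CPM at day 15, against 191, 417 and 875 CPM at day 8 (log2 fold change -0.91, SE 0.32, adjusted p = 0.331). Ppbp, pro-platelet basic protein, had 362, 598 and 1071 CPM at day 15, against 497, 1279 and 2793 CPM at day 8 (-1.09, SE 0.41, adjusted p = 0.353). Cd9, a tetraspanin abundant on platelets and on vesicles, had 191, 286 and 447 CPM at day 15, against 220, 766 and 1224 CPM at day 8 (-1.19, SE 0.40, adjusted p = 0.331). Against numbers 1 to 3 the values were -0.35 (SE 0.34) for Pf4, -0.27 (SE 0.38) for Ppbp and -0.45 (SE 0.37) for Cd9. Gp1ba, the von Willebrand factor receptor chain, averaged 27.6 ± 17.7 CPM at day 15 and 92.1 ± 72.0 CPM at day 8 (SD, n = 6 each).

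The stretch of 250 bases before the RefSeq start of 3 platelet genes is shown because their promoters are known targets of GATA and ETS family factors in megakaryocytes. Within day 8, numbers 4 to 6 over 1 to 3 had log2 fold changes of 3.49 for Itga2b and 1.95 for Gp1ba, both called, and 0.95 for Pf4, which was not called (adjusted p = 0.217). Sequences are from RefSeq, build GRCm38.p6, 5′ to 3′ on the strand of the gene. Capitals mark GATAA and AGGAA on either strand (so TTATC and TTCCT too). The windows are chr11:102469884-102470133 on the minus strand for Itga2b, chr5:90772185-90772434 on the plus strand for Pf4 and chr11:70638872-70639121 on the plus strand for Gp1ba. GENCODE starts Itga2b further upstream than RefSeq, so 239 of its 250 bases lie inside the GENCODE gene, and the other windows lie outside theirs.
Itga2b: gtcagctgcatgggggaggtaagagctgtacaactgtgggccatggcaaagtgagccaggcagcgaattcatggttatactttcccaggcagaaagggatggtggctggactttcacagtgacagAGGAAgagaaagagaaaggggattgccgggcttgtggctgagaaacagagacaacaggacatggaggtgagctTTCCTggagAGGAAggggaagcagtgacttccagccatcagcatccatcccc
Pf4: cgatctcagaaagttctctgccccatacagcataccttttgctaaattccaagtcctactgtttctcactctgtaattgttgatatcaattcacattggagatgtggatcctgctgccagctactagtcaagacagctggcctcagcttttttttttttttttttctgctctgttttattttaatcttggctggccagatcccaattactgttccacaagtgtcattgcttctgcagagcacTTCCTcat
Gp1ba: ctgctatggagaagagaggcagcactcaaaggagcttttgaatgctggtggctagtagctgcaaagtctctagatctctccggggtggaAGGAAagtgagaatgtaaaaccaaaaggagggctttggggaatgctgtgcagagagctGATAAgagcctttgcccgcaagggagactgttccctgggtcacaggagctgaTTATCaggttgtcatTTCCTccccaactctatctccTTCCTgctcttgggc
Itga2b holds 0 GATAA and 3 AGGAA matches, Pf4 0 and 1, and Gp1ba 2 and 3, and no match of one motif overlaps a match of the other. RefSeq windows were found for 28 of the 38 tested platelet genes, 33 windows in all. GATAA was in 36.4% of them and AGGAA in 81.8%, beside 22.6% and 60.3% of the 32851 mouse promoter windows of the same length. A match is a run of letters and not a site shown to be bound.

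Genes of the cell skeleton and of adhesion, many of them abundant in platelets, had the same split. Of 37 tested genes 0 were called and 10 had an unadjusted p under 0.05 with a lower value at day 15 (beside 6.03% of all genes); the median log2 fold change was -0.30. It was 0.05 against day 8 numbers 1 to 3 and -0.47 against numbers 4 to 6, where 15 of 37 were called lower (beside 4.55% of all genes). Myh9, nonmuscle myosin heavy chain IIA, had 727, 806 and 987 CPM at day 15, against 669, 1217 and 2274 CPM at day 8, and 0.22 (SE 0.15) against numbers 1 to 3 and -1.20 (SE 0.14) against numbers 4 to 6. Tln1, talin, had 0.15 (SE 0.20) and -1.15 (SE 0.18). Of 36 tested genes for tetraspanins and vesicle sorting 7 had an unadjusted p under 0.05 with a lower value (beside 6.03% of all genes) and 2 with a higher one (beside 4.64%), and the median was -0.14, with -0.02 against numbers 1 to 3 and -0.21 against numbers 4 to 6; it was -0.33 without day 15 number 2 and -0.23 without number 6.

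Neutrophil genes had the highest median of the lists with 10 or more tested members, and the day 15 group was spread widely. All 12 tested genes of 30 had positive log2 fold changes, 10 of 12 had an unadjusted p under 0.05 (beside 4.64% of all genes for higher values), and none was called. The median was 1.88, with 1.08 against day 8 numbers 1 to 3 and 2.94 against numbers 4 to 6, where 6 of 12 were called higher (beside 1.82% of all genes). The list held 0.45% and 0.356% of the counts in day 15 numbers 2 and 3, 0.0177 to 0.127% in the other 4 day 15 libraries and 0.0216 to 0.163% at day 8. Day 15 thus held both the highest libraries and the lowest, number 4. Without numbers 2 and 3, an alternative chosen after seeing the data, the median was 0.42 and 0 of 12 genes had an unadjusted p under 0.05. Without number 2 alone it was 1.01.

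S100a8 and S100a9 encode the subunits of calprotectin, the main cytosolic protein of neutrophils. S100a8 had 17.4, 215 and 1177 CPM at the lowest, median and highest at day 15, against 30.5, 70.6 and 239 CPM at day 8, so the day 8 range lay within the day 15 range. Its log2 fold change was 2.27 (SE 0.62, adjusted p = 0.196), 1.65 (SE 0.76) against numbers 1 to 3, 3.03 (SE 0.77, adjusted p = 0.0147) against numbers 4 to 6, and 0.73 (SE 0.54) without day 15 numbers 2 and 3. S100a9 had 63.7, 509 and 2261 CPM at day 15, against 53.4, 214 and 717 CPM at day 8 (1.59, SE 0.57, adjusted p = 0.331). It had 0.87 (SE 0.62) against numbers 1 to 3 and 2.84 (SE 0.67, adjusted p = 0.00874) against numbers 4 to 6.

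The granule protein genes Camp (cathelicidin), Ltf (lactoferrin), Lcn2 (lipocalin 2) and Ngp (neutrophilic granule protein) followed the same libraries. Ngp had 562 and 352 CPM in day 15 numbers 2 and 3, and 5.79 to 123 CPM in the other 4, against 3.82 to 182 CPM at day 8. Camp had 155 and 185 CPM in numbers 2 and 3 and 0 to 38.5 CPM in the other 4 at day 15, against 0 to 66.9 CPM at day 8. Against day 8 numbers 4 to 6 these 4 genes rose by 3.22 to 3.81 on the log2 scale, all called. Against numbers 1 to 3 they had 0.96 to 1.18, none called and with unadjusted p of 0.213 to 0.326, and without day 15 numbers 2 and 3 they had 0.46 to 1.03 against all of day 8, with adjusted p of 0.654 to 0.873. Outside the list, Prg2, the major basic protein of eosinophils, rose by 2.79 (SE 0.74, adjusted p = 0.0192) against numbers 4 to 6. It had 1.76 (adjusted p = 0.331) against all of day 8, 0.79 against numbers 1 to 3, and 1.24 (adjusted p = 0.506) without day 15 numbers 2 and 3. Monocyte genes held 0.163% and 0.159% of the counts in day 15 numbers 2 and 3, 0.0646 to 0.124% in the other 4, and 0.0887 to 0.147% at day 8. Their 14 tested members had a median of 0.23, which was -0.01 without number 2, -0.14 without numbers 2 and 3 and 0.36 without number 4. Lyz2 (lysozyme) had 162, 333 and 695 CPM at day 15, against 229, 300 and 542 CPM at day 8 (log2 fold change 0.21, SE 0.31, adjusted p = 0.848), a sign that turned without day 15 number 2 (-0.04).

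Replication histone genes, whose transcripts are made in S phase, had higher values at day 15 in the same libraries. Of 49 tested genes 46 had positive log2 fold changes, 14 an unadjusted p under 0.05 (beside 4.64% of all genes) and 0 were called. The median was 0.65, with 0.43 against day 8 numbers 1 to 3 and 0.82 against numbers 4 to 6. The list held 0.856% and 1.02% of the counts in day 15 numbers 2 and 3, 0.234 to 0.469% in the other 4, and 0.319 to 0.548% at day 8. Without numbers 2 and 3 the median was 0.10, 30 of 49 values were positive and 0 had an unadjusted p under 0.05. Leaving out number 2 alone gave a median of 0.38. The genes lie in clusters of near-identical copies and single members are uncertain.

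Hist1h4f, a histone H4 gene, had 20.3, 113 and 198 CPM at day 15, against 30.2, 58.4 and 106 CPM at day 8 (log2 fold change 1.04, SE 0.39, adjusted p = 0.353). Hist1h2ab, a histone H2A gene, had 208 and 266 CPM in day 15 numbers 2 and 3 and 17.4 to 59.8 CPM in the other 4, against 23.1 to 95.6 CPM at day 8. Hist1h2ad, another H2A gene, had 43 counts at day 15, all in numbers 2, 3 and 6, and 0 in day 8 numbers 4 to 6, which makes it at least 19.8-fold higher when 3 counts over the group are taken as the floor, while in numbers 1 to 3 it had 38.2, 38.7 and 40.1 CPM. Among the 3 members with negative values was Hist1h2bc, a histone H2B gene, which fell by 0.91 (SE 0.28, adjusted p = 0.043) against day 8 numbers 4 to 6.

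Proliferation genes had the same 2 libraries at the top. The list held 0.169% and 0.258% of the counts in day 15 numbers 2 and 3, 0.041 to 0.0955% in the other 4, and 0.0522 to 0.0956% at day 8. Of 15 tested genes 14 had positive log2 fold changes, with a median of 0.48 (0.32 against numbers 1 to 3 and 0.45 against numbers 4 to 6). Mcm7 of the replicative helicase (1.07), Mki67, the Ki-67 antigen (1.26), and Top2a, topoisomerase II alpha (1.21), had an unadjusted p under 0.05 (beside 4.64% of all genes), and 0 of 15 were called. Without day 15 numbers 2 and 3 the median was 0.07, 8 of 15 values were positive and 1 had an unadjusted p under 0.05, and without number 3 alone it was 0.21. Number 2 was also the library with the most hemoglobin, 12.1% of its counts, beside 5.72 to 8.91% in the other 5 at day 15 and 5.5 to 7.94% at day 8. Neutrophil, monocyte, histone, proliferation and, in number 2, hemoglobin shares moved together in these libraries, and their part in each other was not tested.

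**Figure D3:**
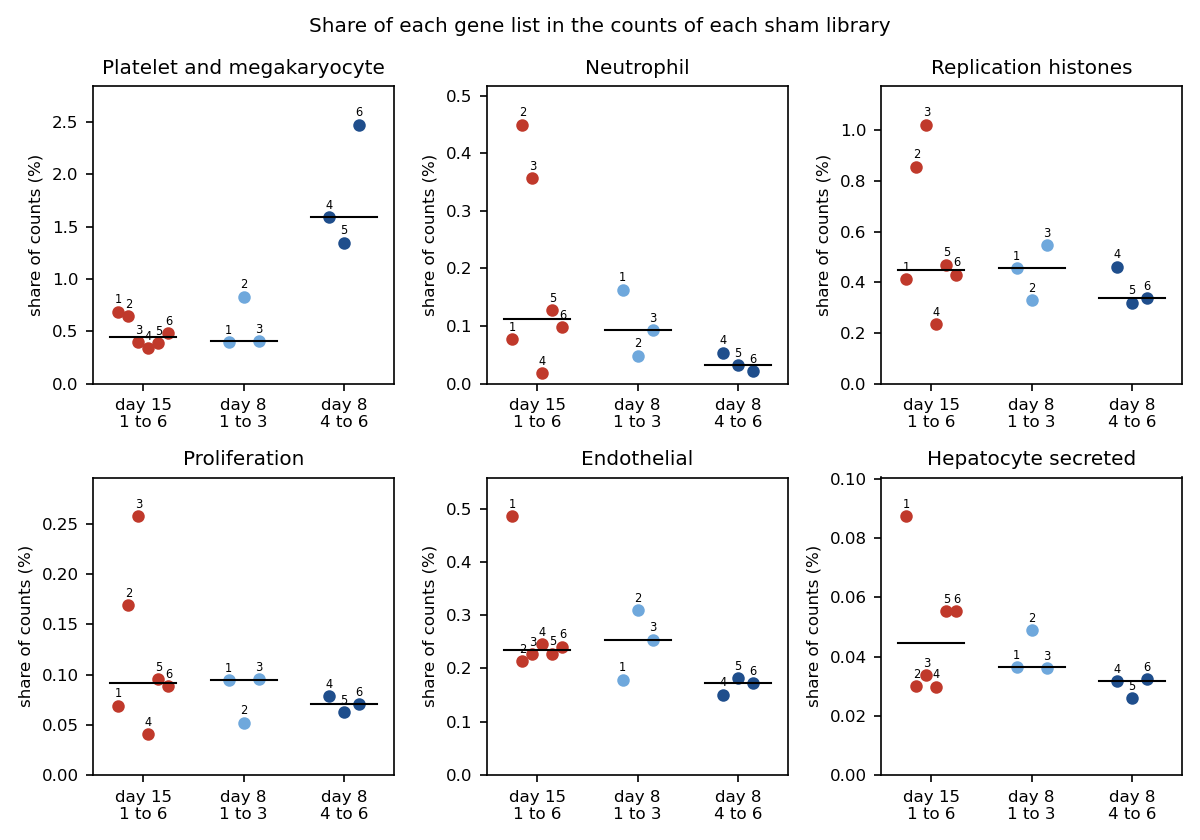
Share of the counts (y axis, %) of 6 gene lists in each sham library, in columns for day 15, day 8 numbers 1 to 3 and day 8 numbers 4 to 6 (x axis); numbers name the samples and bars are medians. Platelet shares stand apart in day 8 numbers 4 to 6, neutrophil, histone and proliferation shares in day 15 numbers 2 and 3, and the endothelial share in day 15 number 1, at 0.486%.

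Dbp, a clock output gene whose transcript cycles over the day in most tissues, had 12 counts at day 15 and 83 at day 8. It had 0, 5.10 and 23.2 CPM at the lowest, median and highest at day 15, against 17.2, 29.5 and 76.5 CPM at day 8. The groups overlapped through day 15 number 4 alone, the others lying at 0 to 7.70 CPM. The log2 fold change was -2.02 (SE 0.55, adjusted p = 0.196), with -2.36 (SE 0.66) against numbers 1 to 3 and -1.75 (SE 0.60) against numbers 4 to 6, and it was -3.09 without day 15 number 4. Over the clock list 8 of 21 genes were tested, 6 with negative values, and the median was -0.55, with -0.85 against numbers 1 to 3, -0.24 against numbers 4 to 6 and -0.29 without day 15 numbers 2 and 3. Tef (-0.70), a relative of Dbp, and the nuclear receptor genes Nr1d1 (-0.74) and Nr1d2 (-0.48) had lower values at day 15, none with an unadjusted p under 0.05, and Clock had 0.14. Against numbers 1 to 3, Dbp, Tef (-1.24) and Nr1d1 (-1.05) had an unadjusted p under 0.05 (beside 1.46% of all genes), and against numbers 4 to 6 the values were -0.23 for Tef and -0.49 for Nr1d1. Per1, which had 21 counts at day 15 and 41 at day 8, was too low to test. The sources used here do not state the hour of blood collection.

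Endothelial genes all had positive log2 fold changes, 25 of 25 tested, with a median of 0.47, 3 with an unadjusted p under 0.05 (beside 4.64% of all genes) and 0 called. The median was 0.14 against day 8 numbers 1 to 3 and 0.77 against numbers 4 to 6, where 3 of 25 were called higher (beside 1.82% of all genes). The list held 0.213 to 0.486% of the counts at day 15, 0.179 to 0.309% in day 8 numbers 1 to 3 and 0.151 to 0.182% in numbers 4 to 6. Day 15 number 1 held the 0.486%, beside 0.213 to 0.246% in the other 5, and without it the median was 0.28. Those called against numbers 4 to 6 were Adgrf5, an adhesion G protein-coupled receptor, Ptprb, the endothelial phosphatase VE-PTP, and Cyyr1, which rose by 1.01, 1.10 and 1.18 on the log2 scale. Against numbers 1 to 3 the same genes had 0.00455, 0.21 and 0.62, none with an unadjusted p under 0.05. Pecam1 (CD31), an endothelial marker set in advance, had 80.3, 122 and 362 CPM at day 15, against 121, 146 and 188 CPM at day 8 (0.07, SE 0.25, adjusted p = 0.958). Day 15 number 1 held that 362 CPM, and without it the log2 fold change was -0.39.

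Matrix and fibroblast genes had a median of 0.39 over 27 tested genes, with 25 positive and 1 with an unadjusted p under 0.05 (beside 4.64% of all genes), Col15a1, a basement membrane collagen. Against day 8 numbers 1 to 3 the median was 0.08 and against numbers 4 to 6 it was 0.68. The list held 0.703% of the counts in day 15 number 1, beside 0.235 to 0.374% in the other 5 and 0.237 to 0.418% at day 8. The median was 0.24 without day 15 number 1 and 0.63 without numbers 2 and 3. Col1a1, the alpha 1 chain of type I collagen, had 115, 173 and 208 CPM at day 15, against 86.0, 130 and 275 CPM at day 8 (log2 fold change 0.13, SE 0.34, adjusted p = 0.935), and its sign turned against numbers 1 to 3 (-0.14). Col2a1, the collagen of cartilage, had 4.27, 11.8 and 39.8 CPM at day 15, against 3.52, 36.0 and 65.8 CPM at day 8 (-1.15, SE 0.65, adjusted p = 0.518). Striated muscle genes had a median of 0.42 over 10 tested genes, all positive. Their share too was highest in day 15 number 1, at 0.22%, beside 0.0458 to 0.143% in the other 5 and 0.0448 to 0.139% at day 8. The median was 0.26 without day 15 number 1, and 0.28, 0.19 and 0.67 without day 8 numbers 4, 5 and 6. The part of day 15 number 1 in the endothelial, matrix and muscle values beyond these medians was not tested. Myh6, the alpha myosin heavy chain of the heart atria and adult mouse ventricle, had 0, 146 and 274 CPM at day 15, against 34.6, 90.2 and 177 CPM at day 8 (0.70, SE 0.57, adjusted p = 0.668). Actc1, cardiac actin, had 6.18, 36.6 and 59.8 CPM at day 15, against 3.56, 37.2 and 63.6 CPM at day 8 (0.07, SE 0.49, adjusted p = 0.986).

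Lymphocyte genes had mostly negative values, with no more genes at an unadjusted p under 0.05 than the 6.03% of all genes with a lower value at day 15. In the B cell list 16 of 17 tested genes had negative log2 fold changes with a median of -0.35, which was -0.02 against day 8 numbers 1 to 3 and -0.64 against numbers 4 to 6. Bank1, a B cell adaptor, was the 1 of 17 with an unadjusted p under 0.05 (-0.84). Cd79a, part of the B cell receptor, had 0, 35.6 and 66.6 CPM at day 15, against 14.1, 46.2 and 56.2 CPM at day 8 (-0.28, SE 0.41, adjusted p = 0.84). In the T and NK cell list 9 of 10 had negative values with a median of -0.37, and 0 had an unadjusted p under 0.05. Without day 15 numbers 2 and 3 the medians were -0.18 and -0.19, and they were -0.55 and -0.63 without number 4. The T and NK cell median was -0.16 without number 1. Cd3e, with 10 counts at day 15 and 13 at day 8, was too low to test. Interferon response genes had a median of -0.17 (-0.11 without day 15 number 3) over 36 tested genes, 24 of them negative. At an unadjusted p under 0.05 there was 1 higher (beside 4.64% of all genes) and 1 lower (beside 6.03%). Their share was narrow, 0.188 to 0.227% of the counts at day 15 and 0.226 to 0.244% at day 8, with only the highest day 15 library reaching the day 8 range. Outside this list, B2m, the light chain of MHC class I, had 296, 419 and 496 CPM at day 15, against 346, 716 and 1065 CPM at day 8 (-0.79, SE 0.27, adjusted p = 0.331).

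Secreted hepatocyte proteins held 0.0299 to 0.0874% of the counts at day 15 and 0.026 to 0.0489% at day 8, and hepatocyte enzymes 0.0187 to 0.0614% and 0.019 to 0.0444%, with overlap in both. Many of these genes passed the count filter through the ligated libraries, so no fraction of members is given: of 24 tested secretory genes 7 had no count in one sham group. Alb, albumin, had 29 counts at day 15 and 36 at day 8, or 0, 10.3 and 61.6 CPM against 0, 2.32 and 35.6 CPM (log2 fold change 0.68, SE 1.07, adjusted p = 0.863), and the sign turned to -0.19 without day 15 number 5. Apoa1 had 6 counts at day 15 and 7 at day 8, and Hpx 1 and 1, too few for a fold. Acute phase genes had a median log2 fold change of 1.12 over the 7 of 9 tested genes with more than 3 counts on either day, with Lcn2, named above, as the 1 with an unadjusted p under 0.05 (beside 4.64% of all genes). The median was 0.79 against numbers 1 to 3 and 1.47 against numbers 4 to 6. The list's shares overlapped, at 0.0413 to 0.0764% of the counts at day 15 and 0.0129 to 0.0806% at day 8. These genes too could pass the filter through the ligated libraries, where 5 of 9 were called higher at day 15. C3, complement component 3, had 130, 369 and 581 CPM at day 15. At day 8 it had 660, 303 and 117 CPM in numbers 1, 2 and 3 and 120, 58.7 and 62.3 CPM in numbers 4, 5 and 6, and rose by 2.15 (SE 0.63, adjusted p = 0.0388) against numbers 4 to 6, with 0.08 (SE 0.59) against numbers 1 to 3.

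Red cell genes overlapped between the days. Hbb-bs, an adult beta globin whose near-identical copies make its counts uncertain, had 18927, 24482 and 52866 CPM at day 15, against 20060, 22932 and 29359 CPM at day 8 (log2 fold change 0.29, SE 0.24, adjusted p = 0.668). Alas2, the first enzyme of heme synthesis in red cells, had 644, 888 and 1982 CPM at day 15, against 667, 748 and 1280 CPM at day 8 (0.29, SE 0.27, adjusted p = 0.713), and was at -0.02 without day 15 numbers 2 and 3. The erythroid list had a median of 0.24 over 29 tested genes, with 1 higher at an unadjusted p under 0.05 (beside 4.64% of all genes). Its sign turned without day 15 number 2 (-0.06) and without numbers 2 and 3 (-0.34), where 6 of 29 values were positive and 2 had an unadjusted p under 0.05 with a lower value. The median was 0.41 without day 15 number 4, 0.36 without number 5, 0.16 without day 8 number 5 and 0.47 without day 8 number 6. The median of the 4 tested hemoglobin genes was 0.21, and -0.02 without day 15 number 2. Ribosomal protein genes had a median of 0.03 over 82 genes (-0.02 without day 15 number 4, 0.13 without numbers 2 and 3) and 4.92 to 7.05% of the counts at day 15, against 5.35 to 6.61% at day 8. Another 13 lists, among them glycolysis, heat shock, the proteasome, the respiratory chain, MHC genes and translation factors, had medians between -0.21 and 0.47. Of their 304 tested genes 11 had an unadjusted p under 0.05 with a higher value (beside 4.64% of all genes) and 10 with a lower one (beside 6.03%). Gene lists of epidermis, intestinal epithelium and chemosensory receptors had 0 genes deep enough to test.

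**Figure D4:**
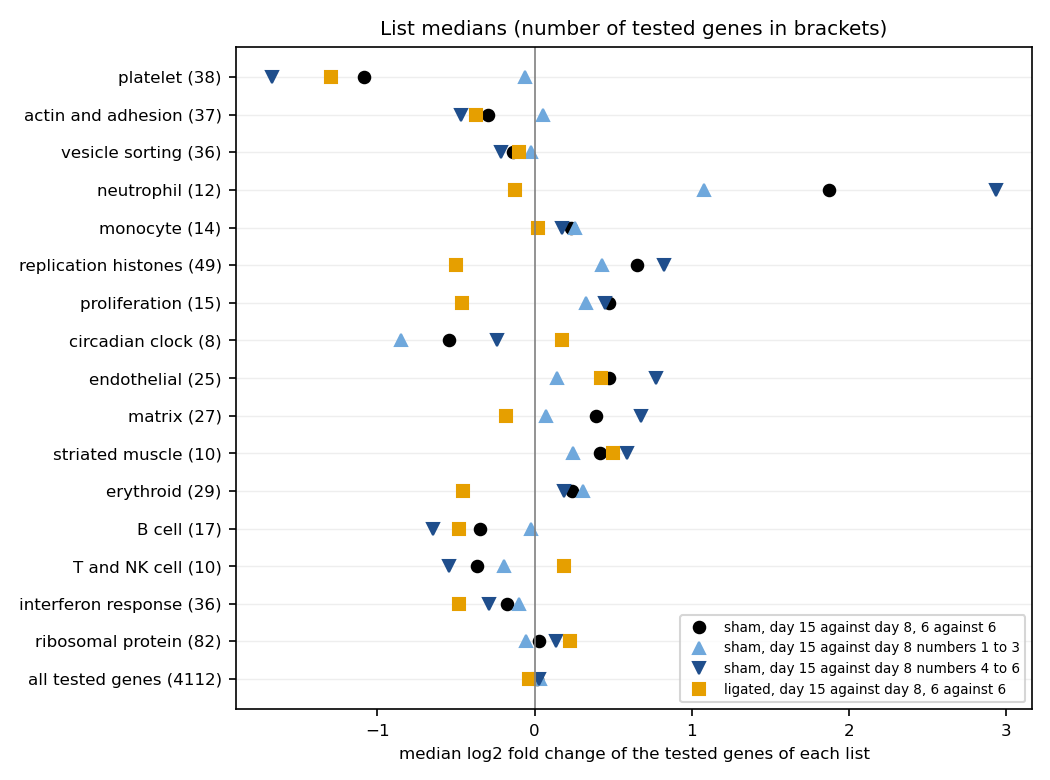
Median log2 fold change (x axis) of the tested genes of each list (rows, with the number of tested genes) for sham day 15 against all day 8 libraries, day 8 numbers 1 to 3 and day 8 numbers 4 to 6, and for ligated day 15 against day 8. The platelet median is at -0.06 against numbers 1 to 3 and at -1.67 against numbers 4 to 6, and the neutrophil median is above 1 in all 3 sham comparisons and at -0.13 in ligated mice.

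Against day 8 numbers 4 to 6 several of the largest falls at day 15 were in genes outside the platelet list. F5, coagulation factor V, fell by 4.04 (SE 0.36, adjusted p = 2.17e-08), with 8.68, 23.9 and 59.8 CPM at day 15, against 433, 345 and 707 CPM in day 8 numbers 4, 5 and 6 and 38.2, 24.6 and 17.2 CPM in numbers 1, 2 and 3. Hpse, heparanase, had a log2 fold change of -3.54 (SE 0.42), Slc6a4, the serotonin transporter, -3.17 (SE 0.44), Itga6, integrin alpha 6, -2.84 (SE 0.29), Itga2, a collagen receptor chain, -2.82 (SE 0.44) and Ptprj, the phosphatase CD148, -2.68 (SE 0.31), all called. Against numbers 1 to 3 the same 6 genes had values between -0.20 and 0.93, the smallest unadjusted p being 0.283. Of the 187 genes called lower, 33 were in the platelet list. A gene outside this list of 44 can still be expressed in platelets, and the cell source of these 6 genes was not tested. Krt19, a keratin of simple epithelia, had 30 counts at day 15 and 2 in day 8 numbers 4 to 6, a ratio of normalised counts of 20.8 (95% exact interval 5.27 to 179, counting error only). In day 8 numbers 1 to 3 it had 19.1, 17.6 and 0 CPM, with a log2 fold change of 0.95 (SE 1.03). The chaperones Hspa5 and Hsp90b1 of the endoplasmic reticulum rose by 1.18 (SE 0.28) and 1.05 (SE 0.29) against numbers 4 to 6 and had 0.32 and 0.20 against numbers 1 to 3. Edem1, which takes part in the degradation of misfolded proteins of the same compartment, fell by 1.71 (SE 0.34, adjusted p = 0.00173) against numbers 4 to 6 and had 0.26 against numbers 1 to 3.

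In ligated mice the same pair of days gave 179 called genes (4.35%), 93 higher (2.26%) and 86 lower (2.09%) at day 15. The ligated libraries were less even: predicted genes held 31.6% of the counts in day 8 number 3 and 12.9% in day 15 number 2. They held 0.804 to 7.80% in the other ligated libraries and at most 0.815% in a sham library. The part of these libraries in the calls was not tested. The difference between the day effect of ligated and of sham mice was called for 0 of 4112 genes by edgeR's interaction test, with 234 (5.69%) at an unadjusted p under 0.05, 87 with a larger value in ligated mice (2.12%) and 147 with a smaller one (3.57%). Ligated day 8 numbers 4 to 6 also held more platelet RNA, 1.35 to 2.7% of their counts, than numbers 1 to 3, at 0.296 to 0.707%, so the unevenness of day 8 was in both surgeries. The platelet median in ligated mice was -1.29, with 15 of 38 called lower, and -1.09 in sham mice, and 0 of the 38 genes had an unadjusted p under 0.05 for the difference. Of the 187 genes called lower in sham mice against numbers 4 to 6, 57 were among the 86 called lower in ligated mice.

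For the neutrophil list the median day effect was -0.13 in ligated and 1.88 in sham mice, and 7 of 12 genes had an unadjusted p under 0.05 for a smaller value in ligated mice, beside 3.57% of all genes. Ltf had the smallest of these p, with -1.91 (SE 0.84) in ligated and 2.28 (SE 0.92) in sham mice, a difference of -4.19 (adjusted p = 0.673). For replication histones the median was -0.50 in ligated and 0.65 in sham mice, with 19 of 49 genes at an unadjusted p under 0.05 for a smaller value. Without day 15 numbers 2 and 3 the sham medians were 0.42 for neutrophil genes, with 0 of 12 at an unadjusted p under 0.05, and 0.10 for histones; the difference between surgeries was not refitted without them. Axl had -0.44 (SE 0.38) in ligated and 1.41 (SE 0.36) in sham mice, a difference of -1.85 (adjusted p = 0.583). Tcp11l2 had 0.16 (SE 0.21) in ligated and -0.98 (SE 0.23) in sham mice, a difference of 1.14 (adjusted p = 0.583). Dbp had -0.21 (SE 0.46) in ligated and -2.02 (SE 0.55) in sham mice, a difference of 1.80 (adjusted p = 0.774).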

How the data were processed

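RNA of plasma vesicles was sequenced in 24 libraries, per the labels' protocols made with a TruSeq stranded kit and neither poly(A) selection nor ribosomal RNA removal. The deposited table holds expected counts of 21960 genes, all of them whole numbers; per the submitters' processing notes the authors used STAR and RSEM, with no version stated. The notes name the human build hg38 although the table carries mouse Ensembl identifiers, and the alignment build remains unknown. Coordinates are those of GENCODE M21 (GRCm38), where 21860 identifiers were found by identifier. The strand setting and the handling of near-identical genes are unstated.

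Columns were assigned to samples by the titles. Genes were filtered with filterByExpr (minimum count 10, minimum total 15), which kept 4112, scaled by TMM, and then compared in R 4.3.3 by the quasi-likelihood F-test of edgeR 4.0.16 (4 group means, all 24 libraries, no covariate), with Benjamini-Hochberg adjustment at 0.05. Day 8 numbers 1 to 3 and 4 to 6 were fitted as separate groups for the comparisons with each. Alternatives included DESeq2 1.42.0. A gene could pass the filter through the ligated libraries. The groups compared and the gene lists were chosen with earlier results of these data known. The genes named were the 8 of smallest p in each direction, since none was called, 22 set in advance (19 of them tested), and, by the rule for called genes, the 12 largest changes with a mean of at least 5 CPM in each direction and up to 3 members of each list against numbers 4 to 6; predicted genes were counted and not named, and genes named besides these were picked after their values were seen.

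Libraries of 1 group differed beyond sampling noise (the lowest chi-square per degree of freedom of a pair was 1.74), so each counts as 1 sample. No molecular identifiers were used. The titles number the samples 1 to 6 in each group with nothing that pairs them. The test was checked on simulated data of 4112 genes, with 40 genes at each true log2 fold change. It called 27.5% of them at -1, 60% at 1, 92.5% at -2, and 100% at 2 and at 3, with 4 false calls. In the real data F5, at -3.18 (adjusted p = 0.182), and Itga2b, at -2.70 (adjusted p = 0.191), were not called by edgeR. Both were uneven within day 8, so the simulated rates do not carry over to such genes. A gene without a call can therefore still differ between the days.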

Additional observations from a re-analysis of the deposited data

Results flagged for a closer look

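In 68 groups of 6 libraries (34 genes on each day), 8 had a single library far from its neighbours by Dixon's criterion. Chance meets it in about 1 group in 20 if values are normally distributed. CPM of genes with few counts need not be, and a group with a single count always meets it, so 8 of 68 cannot be set against that rate. At day 15, Slc16a1 had 67.9 CPM in number 3, beside 16.1 to 31.8 CPM in the other 5. Ctnnd1 had 274 CPM in day 15 number 1, beside 106 to 136 CPM, and Pecam1 had 362 CPM in the same library, beside 80.3 to 150 CPM. Mmp19 had 22.1 CPM in day 15 number 2, beside 4.02 to 8.54 CPM. Dbp had 23.2 CPM in day 15 number 4, beside 0 to 7.7 CPM. Hpx had 3.85 CPM in day 15 number 5 and 3.52 CPM in day 8 number 2, each a single count, with 0 in all other sham libraries. At day 8, Hnrnpll had 23.1 CPM in number 4, beside 9.56 to 14.3 CPM in the other 5.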

How the results depend on the processing

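The count of genes called at day 15 against day 8 was 0 in each direction with DESeq2 size factors, without Lars2 and hemoglobin genes, with the 12 sham libraries alone, with a mean of at least 10 counts and against numbers 1 to 3. It was 1 higher and 4 lower with DESeq2, 2 and 17 against the mean of the day 8 subsets, 75 and 187 against numbers 4 to 6, and 38 and 112 without a filter on low counts. Leaving out 1 library at a time gave 0 to 1 higher (Lbr, without day 15 number 4) and 0 to 1 lower (a predicted gene, without day 15 number 2). Leaving out day 15 numbers 2 and 3 together, added after seeing the data, gave 0 higher and 1 lower, the same predicted gene. A replicate block on the sample number, fitted to the sham libraries alone, gave 0 and 0. The fits to the sham libraries alone, with and without this block, tested fewer genes than the main fit. Among the genes of smallest p they left out Lbr, Slc16a1, Hnrnpll, Mical3, P2ry12, Mmp19, Mctp1 and Slamf1. The fit with a mean of at least 10 counts left out Slc16a1, Hnrnpll and Mical3. A count of 0 in these fits says nothing of the genes they left out. Same-numbered libraries of the days deviated with correlations of -0.123 to 0.12, which cannot tell whether a number stands for a shared pair or batch.

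Of 725 values of 33 named genes, 663 kept direction and side of the threshold, 46 became called and 16 changed sign; Hpx, with 1 count on each day, gets no fold. Against numbers 1 to 3, Col1a1 was -0.14 and Actc1 -0.25. Against numbers 4 to 6, Lyz2 was -0.12. Without a filter, Pecam1 was -0.0191, Lars2 -0.0101 and Actc1 -0.0208, and with the replicate block Pecam1 was -0.11. Leaving out day 15 number 1 gave Pecam1 -0.39; number 2 gave Alas2 -0.00247 and Lyz2 -0.04; number 5 gave Alb -0.19; number 6 gave Actc1 -0.14. Leaving out day 8 number 4 or 5 gave Actc1 -0.12 or -0.20. Over all fits that left out 1 library the highest values were 0.217 for Pecam1, 0.433 for Alas2, 2.08 for Alb, 0.468 for Actc1 and 0.396 for Lyz2. Without day 15 numbers 2 and 3, Alas2 was -0.0238 and Lyz2 -0.27. For all of these the cause was not tested.

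Of the list medians, platelet moved to -0.0604, endothelial to 0.14 and actin and adhesion to 0.0521 against numbers 1 to 3. Without day 15 numbers 2 and 3 neutrophil moved to 0.42, monocyte to -0.14 and erythroid to -0.34, and monocyte to -0.0532 with the replicate block. The log2 ratio of the median share was -1.31 for platelet genes and 0.119 against numbers 1 to 3, and 0.376 for endothelial genes and -0.117 against numbers 1 to 3. Totals of 101733 to 824640 counts limit what can be seen of genes with few counts, such as those of hepatocytes.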
